A study of Mus musculus with 12 samples.

Results

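The transcripts described here are 213 loci of 2 annotation classes. Of them, 185 carry the GENCODE biotype TEC, given to loci with transcript evidence that still await experimental testing, and 28 are sense_intronic, a biotype for noncoding transcripts inside an intron of another gene on its strand. Of these 28, 27 lie in an intron of a coding gene and Gm28119 overlaps none. They were selected on summed read count, as every gene of these biotypes with a summed raw count of at least 240 over the 12 libraries, out of 3480 such genes (3160 TEC and 320 sense_intronic) in a table of 54532 genes. The count is a description and draws on no comparison of doses. Just inside the threshold lay Gm37447 and D430018E03Rik with 242 counts each and Gm43961 with 243. Just outside lay Gm47233 with 236, Gm37660 with 234 and Gm38104 with 233. All 213 passed the filter on low counts, and so did 16038 genes in all.

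Messenger RNA was sequenced from C2C12 cells, a mouse skeletal myoblast line, given perfluorooctanesulfonate (PFOS), a persistent perfluorinated surfactant. Dishes at 100% confluency received 0, 2 or 6 µM for 24 h, with 4 libraries per dose. All groups share the line, the confluent state and the time, and the labels name no vehicle. The labels do not state whether the 4 replicates were grown as separate cultures, so p-values here cover the spread among libraries, which may be no more than technical.

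Transcripts of these classes are mostly annotated as single unspliced exons that lie in introns, just past the ends of coding genes, or between genes. Intron RNA is normally released by splicing and degraded in the nucleus, and the RNA exosome removes many unstable nuclear transcripts, but some introns hold transcripts with a start or a polyadenylation site of their own. Some of the loci are better known: Peg13 is an imprinted noncoding gene expressed from the paternal allele, and others border microRNA hairpins.

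The position of each transcript was read against the coding genes of the table, and the coding gene with the largest overlap is called its host. A tie in overlap went to the gene with the higher summed count. An intron of a coding gene on the same strand held 105 of the 213 transcripts, and an intron of a gene on the opposite strand held 12. Another 10 shared bases with a host exon on the same strand and 23 with one on the opposite strand, and 63 overlapped no coding gene. The 150 transcripts with a host had 141 different hosts, of which 7 held 2 transcripts and Usp33 held 3. The annotation gives 202 of them a single exon. The median length was 2316 bases, with a range of 298 to 30942. Whether the authors counted reads by strand is not given in the sources used here, so reads of a transcript and of the gene on either strand around it cannot be told apart.

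Sequence at 3 of these loci shows what the counts can hold. Gm37795 (chr4:150068539-150070997, plus strand, GRCm38) starts 2 bases past the end of the mature miR-34a-3p. Its first 60 bases are printed from the GENCODE M21 transcript, with the 17 bases that belong to the Mir34a hairpin in capitals. Gm28119 (chr9:41581908-41582283, plus strand) has 2 exons, and the first, of 130 bases, holds the whole 77-base Mir125b-1 hairpin. The main mature microRNA of each hairpin is printed from RefSeq (GRCm38.p6) with its seed, bases 2 to 8, in capitals. These are the only members that overlap a microRNA gene, and their seeds differ.
Gm37795 start: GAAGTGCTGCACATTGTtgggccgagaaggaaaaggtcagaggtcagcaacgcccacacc
mmu-miR-34a-5p: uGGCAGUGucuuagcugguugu
mmu-miR-125b-5p: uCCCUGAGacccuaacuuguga

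AC160637.1 (chr9:59672814-59676700, plus strand, 3887 bases), the most abundant of the 213, lies inside Pkm, the gene of the pyruvate kinase found in muscle and in proliferating cells. It shares 767 bases with Pkm exons, and among these are both alternative exons whose choice separates the M1 and M2 enzymes. Each is 167 bases long and is exon 9 of its own annotated transcript, Pkm-202 at chr9:59675029-59675195 and Pkm-201 at chr9:59675568-59675734. They are identical at 103 positions (61.7%), and the bases that differ are in capitals.
Pkm-202 exon: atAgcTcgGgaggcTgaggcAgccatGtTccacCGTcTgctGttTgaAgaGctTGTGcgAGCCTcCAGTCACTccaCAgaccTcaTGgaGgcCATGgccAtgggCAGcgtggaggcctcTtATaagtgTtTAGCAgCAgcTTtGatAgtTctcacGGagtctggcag
Pkm-201 exon: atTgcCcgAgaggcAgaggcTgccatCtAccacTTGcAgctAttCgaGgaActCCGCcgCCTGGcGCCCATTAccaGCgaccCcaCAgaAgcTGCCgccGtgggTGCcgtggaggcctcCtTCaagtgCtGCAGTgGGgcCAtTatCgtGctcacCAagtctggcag

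The annotated ends of the transcripts were searched for the polyadenylation hexamer AATAAA, on the transcript strand, in the last 50 bases. It was present in 62 of 216 member transcripts (28.7%) and in 16 of the 105 that lie in a same-strand intron (15.2%). The same window held it in 40.5% of protein-coding, 30.6% of lincRNA, 21.8% of all TEC and 21.8% of all sense_intronic transcripts of the annotation. The ends of 3 are printed as examples, the last 60 bases of each, with the hexamer in capitals where it occurs. Peg13 (chr15:72805600-72805659, minus strand) has it, 32 bases from the end. The intronic Gm37893 (chr1:151447682-151447741, plus strand) and Gm38372 (chr1:7152078-7152137, plus strand) do not. The absence says only that these letters are not in this window.
Peg13 end: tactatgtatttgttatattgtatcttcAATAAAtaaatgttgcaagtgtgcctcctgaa
Gm37893 end: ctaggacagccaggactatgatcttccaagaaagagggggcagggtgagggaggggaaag
Gm38372 end: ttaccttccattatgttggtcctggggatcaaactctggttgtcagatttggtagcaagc

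The libraries held 30.2 to 45.6 M counts at 0 µM, 39.8 to 50.4 M at 2 µM and 39.8 to 44.7 M at 6 µM. The share of counts in protein-coding genes was 96.7% to 97.0%. Of the 213 transcripts, between 197 and 213 had at least 10 counts in a library, and the median count of a transcript in a library was between 36 and 56. The myoblast markers Myod1, Myf5, Des, Cdh15, Vcam1 and Chrna1 summed to 430.1 to 500.4 CPM (read counts scaled to one library total with TMM factors) at 0 µM, 425 to 452 at 2 µM and 405 to 437 at 6 µM. All 6 were detected, and 3 were called lower at 6 than at 0 µM.

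The transcripts were scarce. Their mean CPM over the 12 libraries ranged from 0.480 to 111.2, with a median of 1.04, and 109 exceeded 1 CPM. AC160637.1 took 22.1% of their counts and the 10 most abundant took 42.8%. Per kilobase of length, a transcript's level was at the median 7.27% of its host's (interquartile range 2.64% to 16.7%), and 5 of the 150 exceeded their host. Peg13 stood high at 43.2% of Trappc9, a trafficking complex gene, and A930004J17Rik at 33.5% of Srsf4, a splicing factor gene. AC160637.1 reached 2.85% of Pkm, which is itself a very abundant messenger.

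Together the transcripts took a smaller part of the library at the higher dose. Their summed level, in CPM of the deposited library total without TMM factors, was 611, 548, 583 and 579 in the 0 µM libraries, 444, 497, 546 and 469 at 2 µM, and 417, 479, 405 and 469 at 6 µM. Every 6 µM library lay below every 0 µM library, and the highest 2 µM library (546) lay just below the lowest 0 µM library (548). The mean was 442 ± 36.9 at 6 µM, against 580 ± 26.1 at 0 µM (SD, n = 4 each), and 489 ± 43.6 at 2 µM. Without AC160637.1 the sums were 305 to 381 at 6 µM, against 428 to 486 at 0 µM. The 3267 genes of the same biotypes that missed the threshold had a like pattern, with 126 ± 11.2 CPM at 6 µM, against 190 ± 7.41 at 0 µM. The hosts together took 24752 ± 91.1 CPM at 6 µM, against 25888 ± 312 at 0 µM, and these libraries did not overlap either. The deepest 6 µM library (44.7 M counts) had a sum of 479 CPM, and the deepest 0 µM library (45.6 M counts) one of 548 CPM. The part of depth in the sums was not tested. In bulk RNA, fewer cells of a type and less RNA per cell cannot be told apart.

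**Figure D1:**
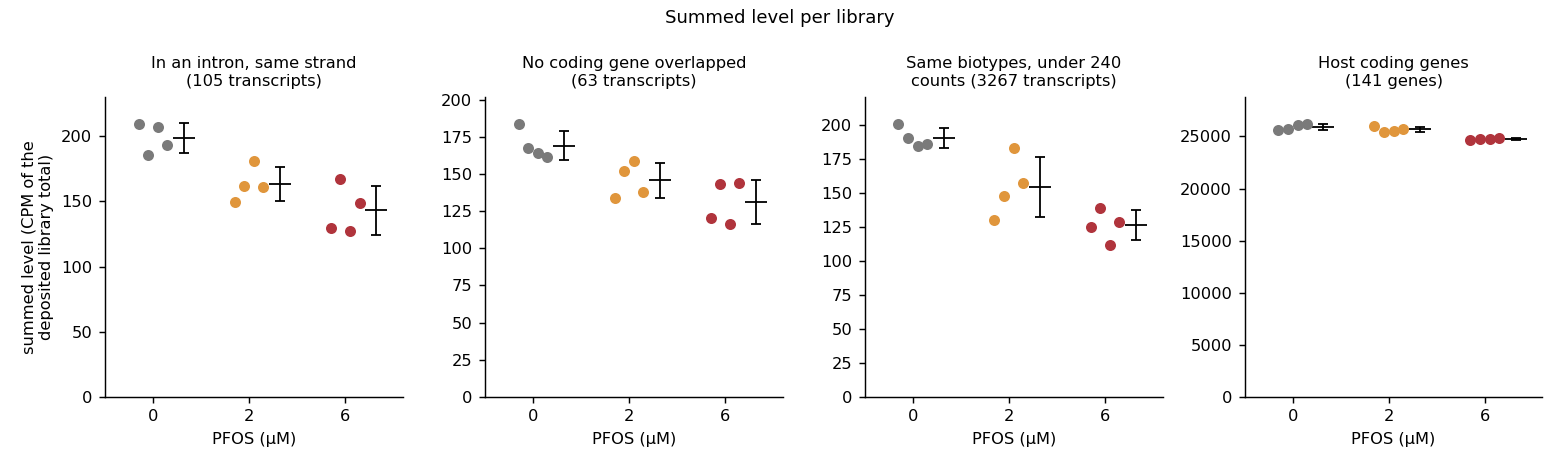
Summed level per library in CPM of the deposited library total (y axis, from 0) by PFOS dose (x axis, µM); points are libraries, and the bar beside them is the mean with its SD (n = 4). Transcripts in same-strand introns averaged 143 at 6 µM, against 199 at 0 µM, those with no coding gene averaged 131, against 169, and the hosts averaged 24752, against 25888.

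At 6 against 0 µM, 14 of the 213 transcripts (6.57%) were called lower and 0 higher by edgeR's quasi-likelihood test at a Benjamini-Hochberg adjusted p under 0.05. Over all 16038 genes, 3.66% were called lower and 4.58% higher. At an unadjusted p under 0.05, 57 transcripts (26.8%) were lower and 0 higher, against 10.8% of genes each way, and DESeq2 called 24 lower and 0 higher, where 5.15% and 6.96% of the 15102 genes to which it gave an adjusted p were. The median log2 fold change was -0.43, with an interquartile range of -0.73 to -0.14, against -0.02 over all genes and 0.00 over protein-coding genes. It was below 0 for 174 transcripts (81.7%), against 53.6% of all genes. All 4 libraries at 6 µM lay below all 4 at 0 µM for 34 transcripts (16.0%), which 6.15% of all genes did, and the opposite order occurred for 0 transcripts and 6.39% of genes. The count of calls depended on single libraries: it was 8 without 0 µM replicate 1, and 9 without 0 µM replicate 3 or without 6 µM replicate 1 or 3.

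Other noncoding classes also had medians below 0 at 6 against 0 µM. The median log2 fold change was -0.29 for 503 lincRNA genes, -0.26 for 467 antisense genes and -0.22 for 260 processed transcripts, against -0.09 for 1114 processed pseudogenes. It was -0.41 for 43 snoRNA genes and -0.29 for 68 bidirectional promoter lncRNA genes, with 67.4% and 79.4% of them below 0. Among the 213, it was -0.41 for TEC and -0.44 for sense_intronic transcripts.

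The median was below 0 in every class of position, and nearest to 0 where a transcript lay across an exon of a gene on the other strand. Of the 105 in a same-strand intron, 91 had a log2 fold change below 0 at 6 against 0 µM (median -0.48), and 7 were called. The 12 in an opposite-strand intron had 11 below 0 (median -0.37), and all 10 that share a same-strand host exon were below 0 (median -0.40). Of the 23 across an opposite-strand exon, 14 were below 0, with a median of -0.17. The 63 with no coding gene had 48 below 0 and a median of -0.44. Within these, 21 lie within 10 kb past the end of a coding gene on its strand, with 14 below 0 and a median of -0.32, while the 20 tested neighbours had a median of 0.01. The other 42 had 34 below 0 and a median of -0.55. The differences between positions were not tested.

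At 2 against 0 µM, 3 transcripts were called lower and 0 higher, where 0.742% and 1.61% of all genes were, and at an unadjusted p under 0.05, 20 were lower and 2 higher, against 6.24% and 7.88% of genes. The median log2 fold change was -0.21, and 156 (73.2%) were below 0, against 52.9% of genes. The libraries did not overlap for 12 lower transcripts (5.63%, against 3.6% of genes) and 2 higher ones (4.77% of genes). At 6 against 2 µM, edgeR's quasi-likelihood test called 0 lower and 0 higher, where 0.549% and 0.561% of genes were, with 19 lower and 1 higher at an unadjusted p under 0.05 (6.77% and 5.75% of genes) and 3 lower by DESeq2 (1.76% of its 12304 genes).  The median there was -0.18, with 152 (71.4%) below 0, against 51.3% of genes. The libraries did not overlap for 13 lower transcripts, against 4.15% of genes, and for 1 higher, against 4.45%. Both treated doses are compared with the same 0 µM libraries: 143 transcripts were below 0 at both. Group means stepped down over 0, 2 and 6 µM for 109 transcripts and up for 13. The same counts over all genes are not given here, so these are descriptions without a reference.

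**Figure D2:**
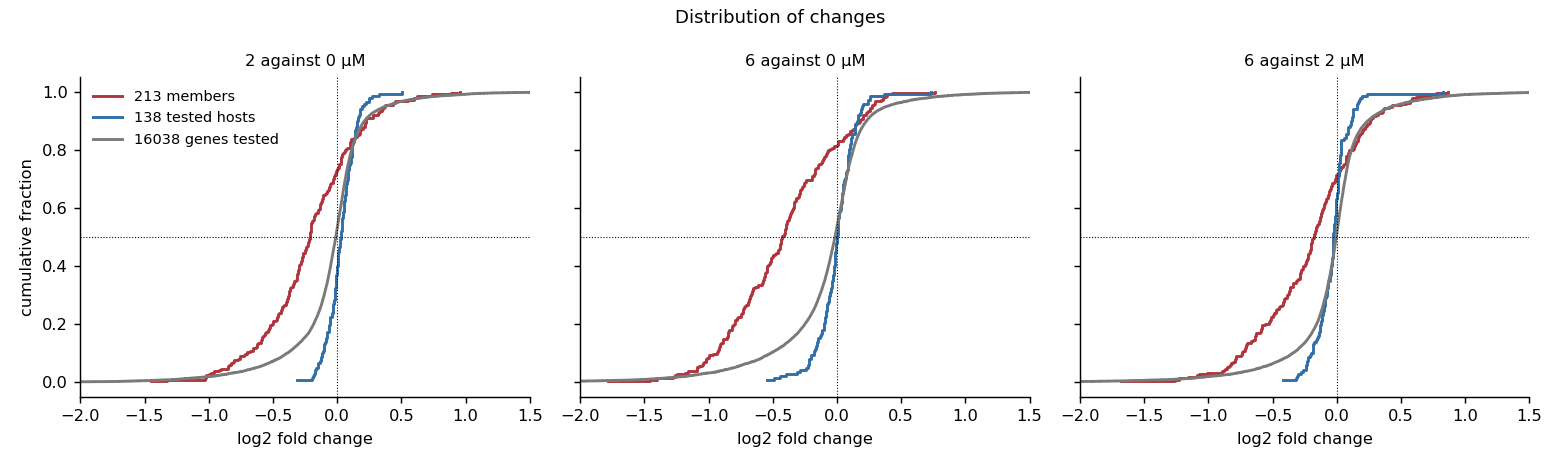
Cumulative fraction (y axis) of log2 fold changes (x axis) for the 213 transcripts, their 138 tested hosts and all 16038 genes tested, in each of the 3 comparisons. The curve of the transcripts crosses 0.5 at -0.21, -0.43 and -0.18 from left to right, and that of the hosts at 0.03, 0.00 and -0.03.

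The same shift was seen library by library. As the median over the transcripts of the log2 difference from the 0 µM mean, the 4 libraries at 6 µM stood at -0.45, -0.23, -0.66 and -0.32, those at 2 µM at -0.33, -0.15, 0.00 and -0.26, and those at 0 µM at 0.13, -0.04, 0.04 and -0.03. All 6 µM libraries were below all 0 µM libraries, and replicate 3 at 2 µM stood among the 0 µM values. The markers of differentiated myotubes moved the same way. The summed level of all 6 was 28.6 to 37.6 CPM at 6 µM, against 51.9 to 64.7 CPM at 0 µM, and 4 of the 5 tested (Tnnt1, Myog, Acta1 and Myh3) were called lower. Their part in the shift of the transcripts was not tested. Of the other marker lists, Fabp4 was called higher at 6 than at 0 µM, Adipoq and Krt18 were at 0 in every library, and the epithelial list summed to at most 0.135 CPM.

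The hosts had no such median shift. At 6 against 0 µM, the 138 tested hosts had a median log2 fold change of 0.00. Of them 12 were called lower and 9 higher, where 3.66% and 4.58% of all genes were. At 2 against 0 µM the median was 0.03, with 2 lower and 4 higher (0.742% and 1.61% of all genes). At 6 against 2 µM it was -0.03, with 2 lower and 0 higher (0.549% and 0.561% of all genes). A transcript's change lay below that of its own host in 126 of 147 tested pairs (85.7%) at 6 against 0 µM, in 116 (78.9%) at 2 against 0 µM and in 103 (70.1%) at 6 against 2 µM. Over all 1385 pairs of a noncoding gene and a coding gene it overlaps, the shares were 71.0%, 66.9% and 57.7% in the same order. Across the 147 pairs, the log2 fold changes of transcript and host had a Pearson correlation of 0.15 at 6 against 0 µM, 0.25 at 2 against 0 µM and 0.17 at 6 against 2 µM. Both values of a pair come from the same libraries and from overlapping loci, so these are descriptions.

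**Figure D3:**
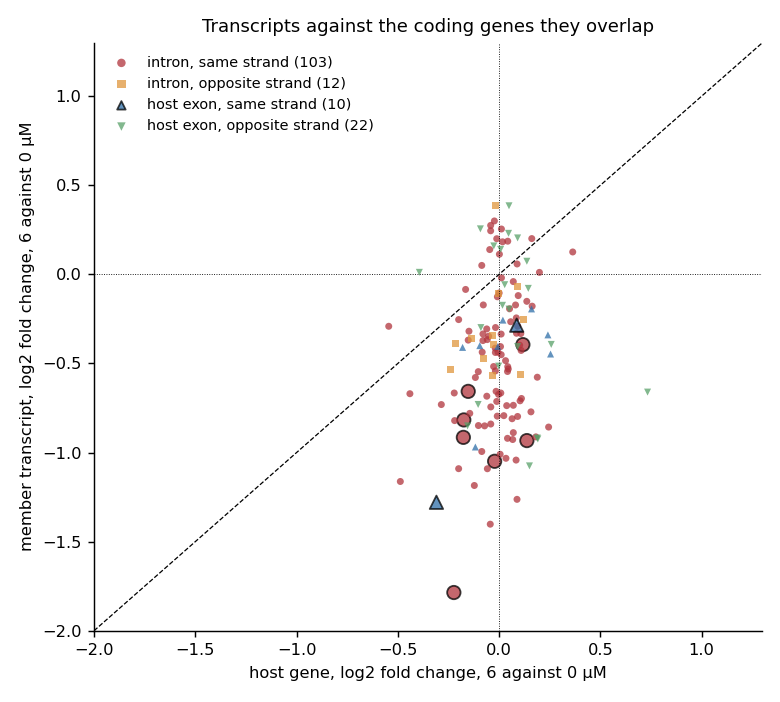
Log2 fold change at 6 against 0 µM of each transcript (y axis) against that of the coding gene it overlaps (x axis) for 147 pairs, by position; large outlined symbols are called transcripts and the dashed line marks equal change. The points gather around 0 on the host axis and below 0 on the other, with 126 of 147 under the line.

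For the change relative to the host, the log2 ratio of transcript to host CPM was taken within each library and tested with limma over all 1385 overlapping pairs of a noncoding and a coding gene. No pair with one of the 213 transcripts was called in any comparison, and over all 1385 pairs 0.144% were called lower and 0.0722% higher at 6 against 0 µM. The smallest adjusted p was 0.150 at 6 against 0 µM, 0.569 at 2 against 0 µM and 0.651 at 6 against 2 µM. At an unadjusted p under 0.05, 39 of the 147 ratios (26.5%) were lower and 0 higher at 6 against 0 µM, against 12.6% and 1.37% of all pairs. At 2 against 0 µM 13 were lower (8.84%, against 5.34%) and 0 higher (against 1.16%), and at 6 against 2 µM 11 were lower (7.48%, against 5.42%) and 0 higher (against 1.88%). The median ratio difference was -0.47 on the log2 scale at 6 against 0 µM, with 129 of 147 (87.8%) below 0, against -0.30 and 71.4% over all 1385 pairs. The median SE of a single ratio was 0.39, nearly as large as the median difference. Other noncoding classes also had median ratio differences below 0 at 6 against 0 µM. The median was -0.52 for 89 lincRNA pairs, -0.48 for 36 snoRNA pairs and -0.47 for 25 bidirectional promoter lncRNA pairs. It was -0.26 for 410 antisense, -0.22 for 136 processed transcript and -0.13 for 237 processed pseudogene pairs. In these classes 63.7% to 88% of pairs were below 0.

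**Figure D4:**
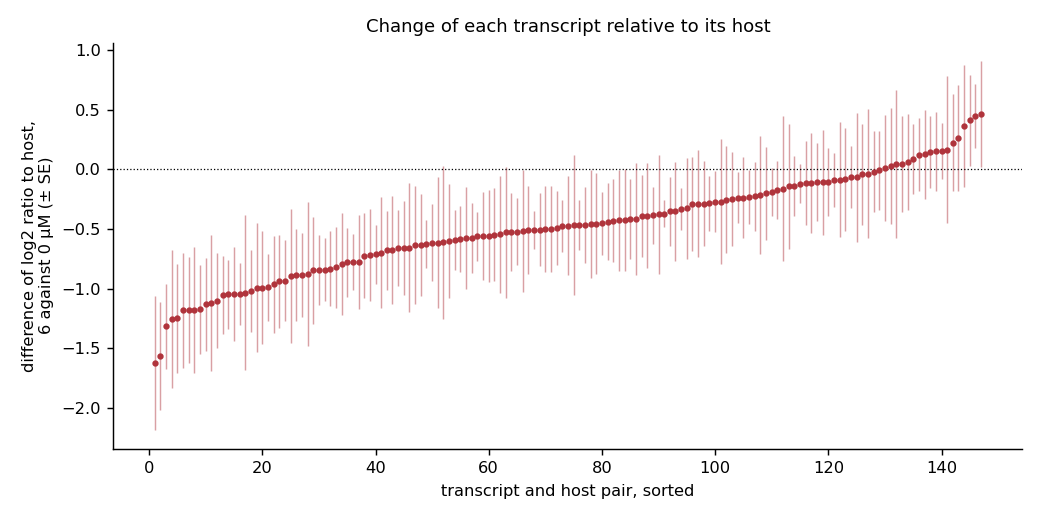
Difference of the log2 ratio of transcript to host, 6 against 0 µM (y axis, ± SE), for 147 pairs sorted by value (x axis). Of the 147 values 129 lie below 0, with a median of -0.47, and the median SE is 0.39.

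The smallest p of a ratio belonged to Gm37893, in an intron of Trmt1l, a tRNA methyltransferase-like gene. Its level was 1.38, 1.49, 1.202 and 1.07 CPM at 6 µM, against 3.12, 2.10, 2.35 and 2.28 CPM at 0 µM, and every 6 µM library was below every 0 µM library. Trmt1l averaged 28.4 ± 1.55 CPM at 6 µM and 25.8 ± 1.53 CPM at 0 µM (SD, n = 4 each). The ratio difference was -1.04 (SE 0.26, limma adjusted p = 0.150), and the transcript's own log2 fold change was -0.93 (SE 0.24, edgeR adjusted p = 0.0169). Without 0 µM replicate 1, the highest library, that adjusted p was 0.0508. Gm38391, across an exon of the collagen lysyl hydroxylase gene Plod2 on the other strand, had a ratio difference of -1.31 (SE 0.36, limma adjusted p = 0.168), while Plod2 itself was called higher (log2 fold change 0.15, edgeR adjusted p = 0.0103). This gene and Gm4430, across the phosphate transporter gene Slc20a1, were chosen after their values were seen. Gm4430 had a ratio difference of -1.05 (SE 0.29, limma adjusted p = 0.168).

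The 14 called transcripts were 1.22-fold to 3.45-fold lower at 6 than at 0 µM, with a median of 1.78-fold. They lay in same-strand introns (7), across same-strand exons (2) or outside coding genes (5), and 2 are sense_intronic. For 13 of them no library at 6 µM reached the level of any at 0 µM. The exception was Gm43300. The calls rest on these same libraries, so the lack of overlap is a description and adds no support to them. Of the 9 with a host, the host was called lower in 2. These were Gsn, which encodes the actin-severing protein gelsolin (log2 fold change -0.18, edgeR adjusted p = 0.0293), and Nexn, which encodes the actin-binding nexilin of the Z-disc (-0.31, edgeR adjusted p = 0.0337).

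Gm44168 (chr6:87986191-87989729, plus strand) had the smallest p. Its level was 4.10, 3.68, 3.95 and 3.55 CPM at 0 µM, 2.58, 2.56, 3.07 and 2.41 CPM at 2 µM, and 1.43, 1.83, 1.29 and 1.91 CPM at 6 µM. The 3 doses did not overlap, and the level stepped down at each. At 6 µM it was 2.37-fold lower than at 0 µM (log2 fold change -1.24, SE 0.20, edgeR adjusted p = 0.000338). The step at 2 against 0 µM (-0.52) had an edgeR adjusted p of 0.190, and that at 6 against 2 µM (-0.72) one of 0.0896. It overlaps Gm5577, annotated as antisense and on the same strand as Gm44168, whose levels at 6 and 0 µM overlapped (log2 fold change -0.30, SE 0.18, edgeR adjusted p = 0.358).

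Gm37795, the transcript that begins inside the Mir34a hairpin, stood at 9.43, 9.49, 10.2 and 9.84 CPM at 0 µM, 5.64, 7.15, 6.30 and 6.25 CPM at 2 µM, and 5.19, 6.43, 3.44 and 6.61 CPM at 6 µM. The treated doses overlapped each other and both lay wholly below 0 µM, with the lowest value in 6 µM replicate 3. miR-34a is known for its induction by p53 and for repressing cell cycle genes, but the mature microRNA is too short to be measured in these libraries. The log2 fold change was -0.85 at 6 against 0 µM (SE 0.16, edgeR adjusted p = 0.00142) and -0.62 at 2 against 0 µM (SE 0.16, edgeR adjusted p = 0.0363). The call at 2 µM ended when any of 7 of the 8 libraries of the 0 and 2 µM groups was left out, every one but 0 µM replicate 1, with an adjusted p of up to 0.124. The Mir34a gene itself had 7 counts in all.

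Gm28119, which holds the Mir125b-1 hairpin in its first exon, had 5.60, 4.25, 5.05 and 4.66 CPM at 0 µM, 4.17, 4.09, 4.31 and 3.63 CPM at 2 µM, and 3.76, 2.98, 2.77 and 3.25 CPM at 6 µM. The 6 µM libraries lay below all at 0 µM, and the 2 µM libraries overlapped both other doses. The log2 fold change at 6 against 0 µM was -0.61 (SE 0.16, edgeR adjusted p = 0.0195). The call ended without 0 µM replicate 1 or 3 or 6 µM replicate 3, with an adjusted p of up to 0.0665. The locus lies inside 3110039I08Rik, a noncoding gene on the same strand, chosen here after its values were seen. That gene had 91.2, 145, 106 and 119 CPM at 6 µM, against 211, 206, 210 and 182 CPM at 0 µM, with no overlap. Its log2 fold change was -0.81 (SE 0.11, edgeR adjusted p = 4.2e-05), so transcript and surrounding gene were both lower, and their reads cannot be told apart.

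AC160637.1 was the most precisely measured. It had 123, 118, 125 and 135 CPM at 0 µM, 94.3, 112, 116 and 101 CPM at 2 µM, and 101, 99.5, 102 and 108 CPM at 6 µM. All treated libraries lay below all 0 µM libraries. The log2 fold change was -0.29 at 6 against 0 µM (SE 0.059, edgeR adjusted p = 0.00322) and -0.24 at 2 against 0 µM (SE 0.059, edgeR adjusted p = 0.0303). The call at 2 µM ended without 0 µM replicate 3 or 4 or without 2 µM replicate 1 or 4, with an adjusted p of up to 0.142. Pkm averaged 5170 ± 132 CPM at 6 µM and 4868 ± 220 CPM at 0 µM (SD, n = 4 each; log2 fold change 0.09, edgeR adjusted p = 0.119). The ratio to Pkm differed by -0.37 (SE 0.11, limma adjusted p = 0.168) at 6 against 0 µM. Because both alternative exons lie inside AC160637.1, its counts cannot be told apart from Pkm reads over these exons.

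Gm37352 (chr8:84200869-84203049, plus strand) differed from the others in its order of doses. It had 5.30, 7.28, 5.15 and 5.25 CPM at 0 µM, 3.59, 2.76, 3.55 and 2.88 CPM at 2 µM, and 4.40, 3.34, 3.91 and 3.84 CPM at 6 µM. Both treated doses lay below 0 µM and overlapped each other, with the 2 µM mean the lowest. The log2 fold change was -0.85 at 2 against 0 µM (SE 0.17, edgeR adjusted p = 0.00938) and -0.57 at 6 against 0 µM (SE 0.17, edgeR adjusted p = 0.0362), and the 6 against 2 µM difference of 0.28 had an edgeR adjusted p of 0.540. The call at 6 µM ended without 0 µM replicate 2, the highest library, or without 6 µM replicate 2, 3 or 4, with an adjusted p of up to 0.157.

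Another 3 intronic transcripts were called lower at 6 than at 0 µM, in Pcmtd1, Gsn and Ociad1. Gm38372, in Pcmtd1, had 2.12, 3.09, 2.57 and 2.90 CPM at 6 µM, against 6.03, 3.79, 4.35 and 4.69 CPM at 0 µM, and 3.69 to 5.54 CPM at 2 µM. The 2 µM libraries stayed with those at 0 µM, and the 6 µM libraries lay below all others. The log2 fold change at 6 against 0 µM was -0.82 (SE 0.19, edgeR adjusted p = 0.00954), while Pcmtd1 had -0.17 (edgeR adjusted p = 0.150). Gm43128, in Gsn, had 1.59, 1.90, 1.46 and 1.88 CPM at 6 µM, against 2.54, 3.38, 2.95 and 4.01 CPM at 0 µM (log2 fold change -0.91, SE 0.23, edgeR adjusted p = 0.0144). The groups were apart, and Gm43128 stood at 1.11% of the level of Gsn per kilobase. Gm42732, in Ociad1, had 1.245, 1.72, 1.46 and 1.65 CPM at 6 µM, against 3.52, 3.88, 2.70 and 2.44 CPM at 0 µM (log2 fold change -1.05, SE 0.27, edgeR adjusted p = 0.0163). Ociad1 had -0.02 (edgeR adjusted p = 0.833), and the call for Gm42732 ended without 0 µM replicate 2 or 6 µM replicate 1, with an adjusted p of up to 0.0650. The ratio differences of these 3, from -0.63 to -0.99, had limma adjusted p-values from 0.168 to 0.229.

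**Figure D5:**
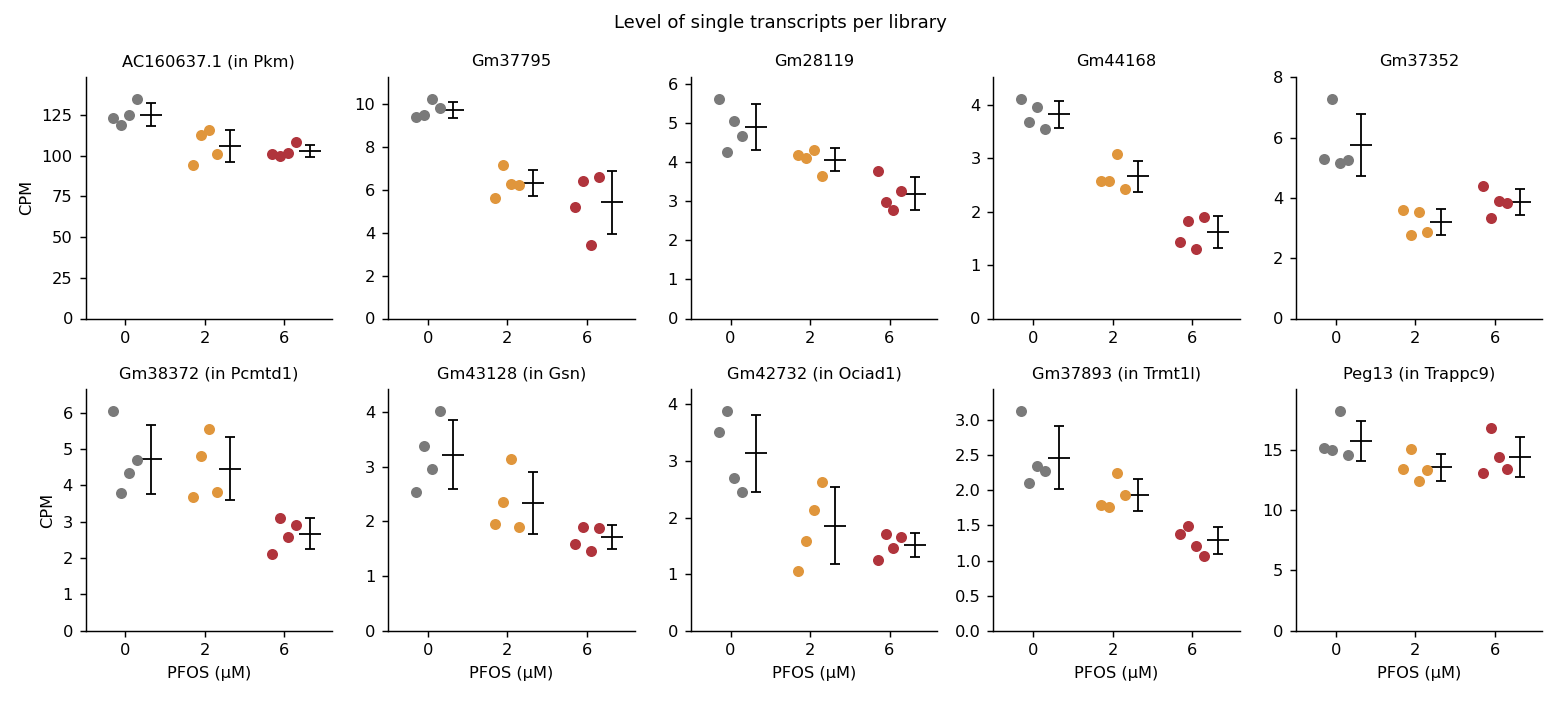
Level in CPM (y axis, from 0) by PFOS dose (x axis, µM) for 10 transcripts, with the host in brackets where there is one; points are libraries, and the bar beside them is the mean with its SD (n = 4). In the first 9 panels no 6 µM library reaches any 0 µM library, while the 6 and 0 µM libraries of Peg13 overlap.

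Smaller changes were called for 2 abundant transcripts. Gm44250, which starts 366 bases past the end of Pon3, a paraoxonase gene, averaged 12.4 ± 1.2 CPM at 6 µM and 15.7 ± 1.58 CPM at 0 µM (SD, n = 4 each; log2 fold change -0.34, edgeR adjusted p = 0.0366). The call ended without 0 µM replicate 1 or 2 or 6 µM replicate 1 or 3, with an adjusted p of up to 0.134. Pon3, on the same strand, had a log2 fold change of -0.16 (edgeR adjusted p = 0.510). The sense_intronic B930095G15Rik, in an intron of Farp1, averaged 8.66 ± 0.43 CPM at 6 µM and 11.4 ± 1.13 CPM at 0 µM (SD, n = 4 each; log2 fold change -0.39, edgeR adjusted p = 0.0366). Its call ended without 0 µM replicate 1, 3 or 4 or any single 6 µM library, with an adjusted p of up to 0.107. Farp1 had a log2 fold change of 0.12 (edgeR adjusted p = 0.151).

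The remaining 3 calls fell outside the rule for naming and are named after their values were seen. Gm45501 overlaps 2 coding genes, the growth factor receptor gene Fgfr2, taken as its host by the rule above, and Eef1akmt2. It had 0.0922, 0.181, 0.555 and 0.254 CPM at 6 µM, against 0.582, 0.996, 1.23 and 0.945 CPM at 0 µM. The groups were apart by a narrow margin at very low counts (log2 fold change -1.79, SE 0.53, edgeR adjusted p = 0.0394). Gm43185, across an exon of Nexn, had a log2 fold change of -1.28 (SE 0.38, edgeR adjusted p = 0.0417), and Gm43300, in the splicing regulator gene Ptbp2, one of -0.66 (SE 0.19, edgeR adjusted p = 0.0371). Each of these calls ended in 6 of the 12 fits that left out 1 library, with adjusted p-values of up to 0.113 for Gm45501, 0.113 for Gm43185 and 0.128 for Gm43300. These fits left out 0 µM replicates 2 to 4 and 6 µM replicates 1, 2 and 4 for Gm45501, 0 µM replicates 1, 3 and 4, 2 µM replicate 2 and 6 µM replicates 1 and 3 for Gm43185, and 0 µM replicates 1 to 3 and 6 µM replicates 1, 3 and 4 for Gm43300.

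Several of the most abundant transcripts were not called at any dose. Peg13 had 13.1, 16.8, 14.4 and 13.4 CPM at 6 µM, against 15.2, 14.9, 18.2 and 14.6 CPM at 0 µM. These overlapped (log2 fold change -0.13, SE 0.10, edgeR adjusted p = 0.526), and its host Trappc9 had -0.01 (edgeR adjusted p = 0.958). At 6 against 0 µM, Gm45884, which lies 2903 bases past the end of Pura, had -0.08 (SE 0.11, edgeR adjusted p = 0.743), and Gm42547, 25122 bases past the end of Zfp800, had 0.00 (SE 0.12, edgeR adjusted p = 0.998). Gm44950, 494 bases past the end of Arpin, an inhibitor of the Arp2/3 complex, had 0.17 (SE 0.16, edgeR adjusted p = 0.608). All 3 lie past the end of a coding gene on its strand.

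Another 2 abundant transcripts lie in genes of splicing factors. A930004J17Rik, in an intron of Srsf4, had 8.002, 11.2, 7.07 and 11.2 CPM at 6 µM, against 12.4, 11.02, 12.3 and 12.6 CPM at 0 µM (log2 fold change -0.37, SE 0.14, edgeR adjusted p = 0.107). The 6 µM libraries split, with replicates 2 and 4 among the 0 µM values. Gm43980, in an intron of Tra2a on the other strand, had 5.79, 6.79, 4.12 and 6.61 CPM at 6 µM, against 7.29, 6.41, 8.82 and 7.95 CPM at 0 µM (log2 fold change -0.39, SE 0.16, edgeR adjusted p = 0.159). Tra2a itself was called lower (-0.21, edgeR adjusted p = 0.0466), and Gm43980 showed a ratio difference of -0.19 (SE 0.20, limma adjusted p = 0.697).

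Transcripts that share a host can be set side by side, as they have one gene around them. In Usp33, a deubiquitinase gene (log2 fold change 0.09 at 6 against 0 µM), the intronic Gm43858 had -0.80 (SE 0.33). Gm43857 and Gm43859, both across exons on the other strand, had -0.41 (SE 0.45) and 0.20 (SE 0.42). In Ptbp2 (-0.15), the intronic Gm42664 had -0.37 (SE 0.19), beside -0.66 for Gm43300. Of the hosts with more than 1 transcript (7 with 2, and Usp33 with 3), only Usp33 and Ptbp2 are shown here, as examples. Their transcripts fell outside the rule for naming, and the other hosts may differ. Of the transcripts shown, none but Gm43300 was called.

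Genes for the removal and maturation of such RNA were counted by list, beside 3.66% of all genes called lower and 4.58% called higher at 6 against 0 µM. In that comparison, 1 of 21 tested genes on the list of the nuclear exosome and its adaptors was called higher and 0 lower, with a list median of -0.01. The 1 called was Mpp6 (log2 fold change 0.18, edgeR adjusted p = 0.0172). In mouse this symbol names a membrane-associated guanylate kinase, so its place on the list is an error. The exosome cofactor of like name is Mphosph6, which was not called (-0.03, edgeR adjusted p = 0.874). Of 19 cleavage and polyadenylation genes, 1 was called higher and 0 lower (Cpsf1, the large subunit of the factor that reads the hexamer, 0.14, edgeR adjusted p = 0.0274), with a median of 0.05. Of 14 Integrator genes, edgeR called 0, with a median of 0.06. Of 18 genes of the U1 particle and splicing factors, 3 were called lower and 0 higher, with a median of -0.07. They were the SR protein genes Srsf5 (-0.39, edgeR adjusted p = 0.000212) and Srsf11 (-0.22, edgeR adjusted p = 0.0103), and Tra2a. Srsf5 averaged 150.0 ± 11.3 CPM at 6 µM and 196 ± 11.7 CPM at 0 µM (SD, n = 4 each). At 2 against 0 µM, Srsf5 alone of these lists was called (-0.28, edgeR adjusted p = 0.0157). Over all genes the median was -0.02 at 6 against 0 µM.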

How the data were processed

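The authors deposited raw counts, a whole number of reads for each gene and library. Per the submitters' processing notes, HISAT2 aligned the reads and the build was GRCm39. Not given in the sources used here are the counter, its strand setting and the annotation release. Of 54495 genes shared with GENCODE M21 (GRCm38), 53585 (98.3%) have identical coordinates there, as do 212 of the 213 transcripts, so coordinates are named as GRCm38. The libraries were prepared from messenger RNA purified from total RNA, per the labels.

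The deposited counts of 16038 genes that passed edgeR's filterByExpr (38494 did not) were analysed in edgeR 4.0.16 (R 4.3.3) with TMM factors, the quasi-likelihood test, a mean per dose over 12 libraries (9 residual degrees of freedom) and Benjamini-Hochberg adjustment. Ratios to hosts used log2 CPM with a prior count of 2 in limma 3.58.1, adjusted over 1385 pairs. Genes were called at an adjusted p under 0.05. The steps were tested on simulated counts.

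The members and gene lists were chosen with earlier results of these data known. The rule named the 10 transcripts of highest mean CPM, up to 10 called per comparison and direction by smallest adjusted p, and their hosts. Exceptions are stated. Alternatives were RLE and upper-quartile factors, no filter, DESeq2 1.42.0, a replicate block, and left-out libraries. For ratios they also included a prior count of 0.5, same-strand hosts and an offset model.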

Additional observations from a re-analysis of the deposited data

Results flagged for a closer look

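Of 66 groups of 4 libraries examined for named transcripts, 3 held a library that stood apart from the other 3 by more than the 95% limit of Dixon's test, and chance flags about 1 group in 20. Peg13 had its highest 0 µM value in replicate 3, at 18.17 CPM. Gm44250 had its highest 2 µM value in replicate 4, at 16.06 CPM. Gm37352 had its highest 0 µM value in replicate 2, at 7.277 CPM, and its call at 6 against 0 µM ended without that library, while its call at 2 against 0 µM held.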

How the results depend on the processing

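The count of transcripts called lower at 6 against 0 µM was 14. It was 24 with DESeq2. Without a set of 3 libraries (0 µM replicate 1 and 6 µM replicates 2 and 3, rule of choice not given) it was 5. It was 8 to 17 when 1 library was left out. At 2 against 0 µM it was 3, and 1 to 3 when 1 library was left out, with 1 without 0 µM replicate 3 or 4 or 2 µM replicate 1 or 4. At 6 against 2 µM it was 0, with 2 without the count filter, 3 with DESeq2, and 0 to 1 when 1 library was left out. The count called higher was 0 in all 3 comparisons under all 18 alternatives, and the counts of called ratios were 0 under all 20. The median log2 fold change ranged from -0.50 to -0.37 at 6 against 0 µM, from -0.26 to -0.17 at 2 against 0 µM and from -0.27 to -0.10 at 6 against 2 µM when 1 library was left out, and no result reversed. With the replicate number as a block, 12 transcripts were called lower at 6 against 0 µM and 3 at 2 against 0 µM. After dose means were removed, same-numbered libraries correlated between -0.03 and 0.04, and other pairs across doses between -0.02 and 0.05. Of 12 libraries, 5 correlated best with their own number. These values cannot settle whether the samples were paired, and the main fit used no block. Of 17 named calls, 3 kept their side of the threshold under all 18 alternatives, namely Gm44168 and Gm37795 at 6 against 0 µM and Gm37352 at 2 against 0 µM. Without the set of 3 libraries, the edgeR adjusted p at 6 against 0 µM was 0.0560 for Gm43128, 0.0666 for AC160637.1, 0.0690 for Gm43300 and 0.0746 for Gm38372. It was 0.107 for Gm42732, 0.117 for Gm37893, 0.158 for Gm44250 and 0.205 for Gm37352. It was 0.249 for Gm43185, 0.266 for B930095G15Rik and 0.297 for Gm28119, while Gm45501 kept its call (0.0244).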
